A study of Equus caballus with 24 samples.

Results

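In equine IgE-binding monocytes, 150 genes were examined together because their RNA was lower in the “Clinical Phase” of a seasonal allergy than in the “Remission Phase” in each of 12 horses. The genes were selected on measured values. Of 30371 genes listed, 13597 reached a CPM of 0.5 in 1 or more of 24 libraries, and the level of a gene was taken as log2(CPM + 4), with CPM, the count of a gene relative to the library total, scaled by the trimmed mean of M-values (TMM) over all 24 libraries. At that scale 221 genes (1.63% of the 13597) were lower in the “Clinical Phase” in all 12 horses and 347 were higher in all 12. The 150 of the 221 with the largest mean of Remission minus Clinical were kept and ranked from 1, the largest, to 150. That direction and that ranking are therefore the choice itself, and the phase differences of the 150 genes are given as a description with no test.

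Monocytes are white blood cells of the innate immune system that circulate in blood and enter tissue, where they can become macrophages or antigen-presenting cells. Some monocytes carry IgE, the antibody class of immediate allergy, on a high-affinity IgE receptor that is better known from mast cells and basophils. In horses, allergy to the saliva of Culicoides midges causes an itching skin disease that returns each summer with the midges and subsides in winter.

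RNA was sequenced from IgE-binding monocytes of 7 Icelandic horses with naturally occurring Culicoides hypersensitivity (horses A1 to A7) and 5 healthy horses (H1, H2, H4, H6 and H7), once in January (“Remission Phase”) and once in August (“Clinical Phase”). All horses were clinically healthy in January, and only the allergic horses were chronically affected in August. All lived on the same pastures with the same midge exposure and the same vaccination and deworming. All were mares except 1 gelding among the allergic horses, and the healthy horses were younger at the median. Blood mononuclear cells were enriched on CD14 beads and then sorted as CD14low, IgE+, MHCIIhigh, CD16- and CD163- cells, which were frozen before RNA was extracted. Each library is 1 horse at 1 time, with no repeat library. Every horse was sampled in winter first and summer second, and deworming was done in December. Phase, season, feed, time since deworming and sampling date therefore cannot be told apart.

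The files name genes by Ensembl identifier alone, and no identifier could be paired with a symbol in the tables used here, so the genes are called by rank, with the identifier of the first and the second. For the same reason the labelled cell type was not checked against its markers, and no pathway is named.

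Total counts ranged from 17558184 to 40404429 (median 28554227) in the Remission libraries and from 14493071 to 24832163 (median 19823848) in the Clinical ones. The Remission library of horse A6 stood apart: its TMM factor was 0.737 and 11802 genes had counts in it, against 13130 to 13877 in the other 6 allergic Remission libraries. Values are therefore also given without horse A6. In bulk RNA of sorted cells, fewer cells of a type and less RNA per cell cannot be told apart.

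As a group, the 150 genes took a small share of the RNA, and that share was smaller in summer. Their TMM-scaled CPM values summed to 5177 ± 749 (SD, n = 12) in the “Remission Phase” and to 3323 ± 543 (SD, n = 12) in the “Clinical Phase”. Their mean share of the unscaled counts, a separate measure, was 0.520% and 0.333%. The mean level over the 150 genes was 4.61 ± 0.136 on the log2 scale in Remission libraries, from 4.34 in A5 to 4.87 in A6. In Clinical libraries it was 4.06 ± 0.184, from 3.74 in A6 to 4.28 in A3. The lowest Remission library (A5) thus lay above the highest Clinical library (A3). Horse A6 held both the highest Remission level and the lowest Clinical level on this TMM-scaled measure. Before TMM scaling, the 150 genes took 0.524% of the counts of its Remission library. That lay within the range of 0.393% to 0.609% of the 12 Remission libraries. In its Clinical library the unscaled share was 0.220%, the lowest of the 12.

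**Figure D1:**
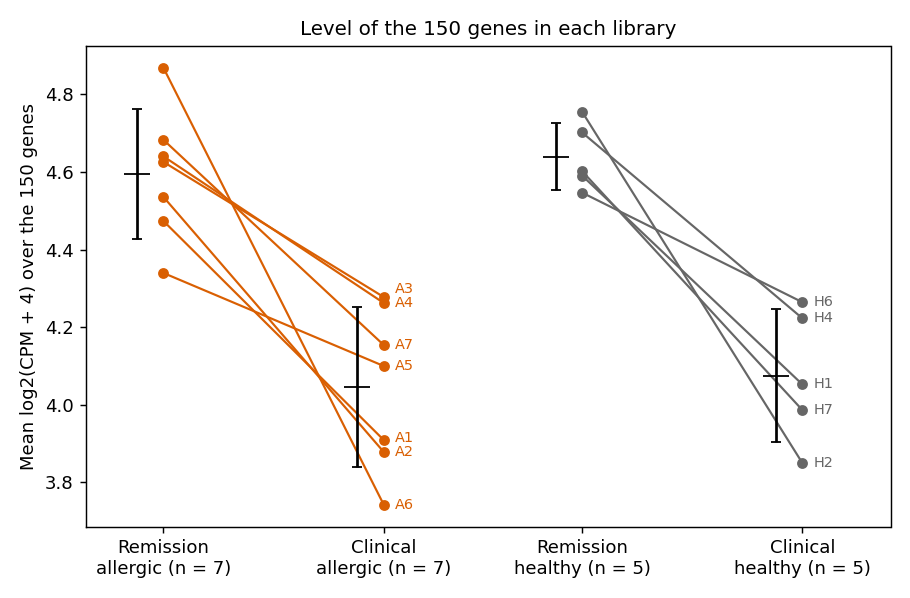
Mean log2(CPM + 4) over the 150 genes in each of the 24 libraries, with a line joining the 2 libraries of a horse (orange, 7 allergic; grey, 5 healthy) and bars for the mean and SD of each group. Every line goes down because the genes were chosen that way; the slopes differ, from 1.13 in A6 to 0.240 in A5.

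How far the genes differed between phases depended on the horse. The mean difference over the 150 genes (Remission minus Clinical, log2) was 0.555 ± 0.255 over the 12 horses and 0.503 ± 0.190 over the 11 horses without A6. It was largest in A6 (1.13) and H2 (0.905), and smallest in A5 (0.240) and H6 (0.282). The other 8 horses lay between 0.348 in A3 and 0.657 in A2. Both groups of horses held large and small differences. In single genes, A6 had the largest difference of all horses in 81 of the 150 genes and H2 in 32, whereas A5 had the smallest in 39 and H6 in 36. A difference of at least 1 on the log2 scale was seen for 84 genes in A6 and 51 in H2, but for 0 genes in A3, A5 and H6.

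Some other measures of the libraries also set A6 and H2 apart. The Remission libraries of A6 and H2 had the lowest numbers of genes with counts among the 12 (11802 and 12934). These were also the only horses whose Remission library held fewer counts than the Clinical one, at ratios of 0.707 and 0.951. Across the other horses these measures did not follow the order of the differences. A2 and H7, next in size, had ratios of 2.22 and 2.23, and 13803 and 13706 genes with counts in Remission. A5, with the smallest difference, had a ratio of 1.21 and 13347 genes. The 150 genes that were higher in the “Clinical Phase” by the largest mean differences changed most in A6 and H2, by means of 2.25 and 1.47. They changed least in H6 (0.321) and A5 (0.480). The part of depth and gene detection in the size of the differences was not tested. After all libraries were thinned to the lowest total, 131 of the 150 genes were still lower in every horse. Thinning evens the totals alone, and the genes were chosen on these same values. Nothing about depth or gene detection is therefore read from that number.

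**Figure D2:**
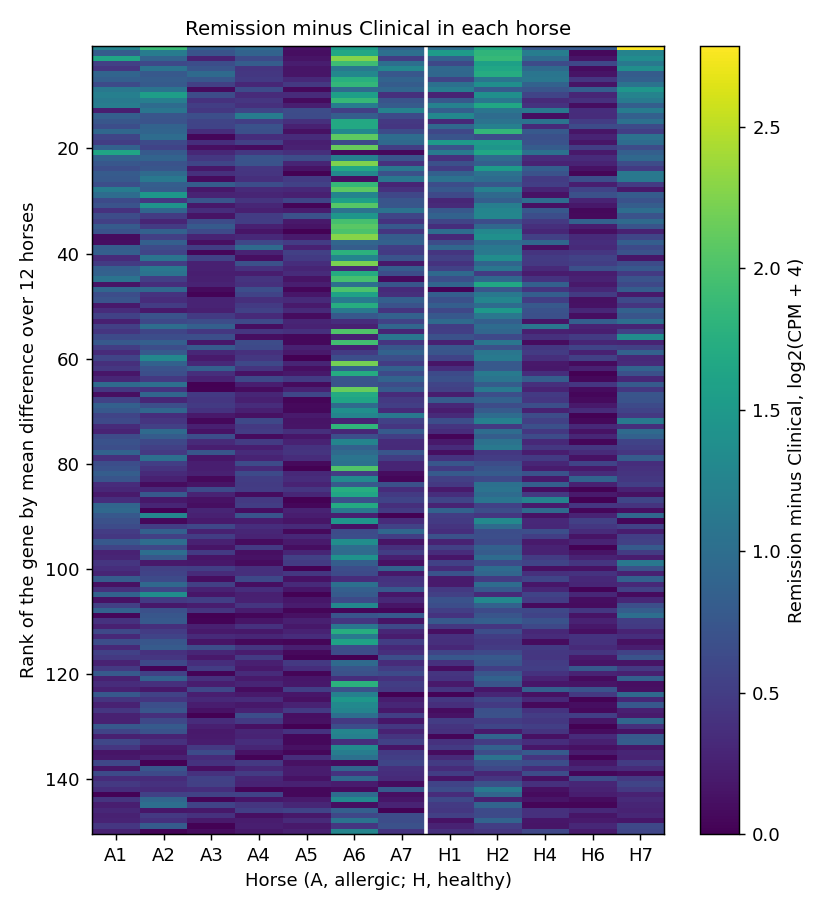
Difference of each of the 150 genes (rows, by rank) in each horse (columns), as Remission minus Clinical on the log2(CPM + 4) scale, with a white line between the 7 allergic and 5 healthy horses. The columns of A6 and H2 are the brightest, with mean differences of 1.13 and 0.905, and those of A5 and H6 the darkest, with 0.240 and 0.282.

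Most of the 150 differences were moderate. The mean difference of a gene ran from 0.387 to 1.21 on the log2(CPM + 4) scale, with a median of 0.515. As a ratio of mean CPM, Remission over Clinical, it ran from 1.32 to 3.77 with a median of 1.65, and it was at least 2 in 29 genes and under 1.5 in 46. The genes covered a wide range of abundance. The median of their mean CPM was 17.7 in Remission libraries, where 9 genes were at 100 CPM or more and 37 below 10, while the median over all 13597 genes was 12.5. In the “Clinical Phase” the median was 10.8 for the 150 genes and 12.2 for all genes. Counts were low for some of them. The lowest count in any library had a first quartile of 48.75 and a median of 120 over the 150 genes. It was 3 for rank 115 and 12 for rank 2. A library with 0 counts occurred for 2 of the 150, rank 102 in horse H7 and rank 103 in horse A2, both in the “Clinical Phase”, where 3 counts would have been 0.189 and 0.201 CPM.

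The gene with the largest mean difference at a pseudocount of 4 was ENSECAG00000004442, rank 1. At a pseudocount of 1 its mean difference was 1.42, below the 1.57 of ENSECAG00000011723, so the order of the first and the second gene depends on that choice. Its CPM had a lowest, median and highest value of 17.4, 33.9 and 54.6 in the Remission libraries and of 3.40, 13.9 and 28.3 in the Clinical libraries. In the healthy horses H1, H2, H4, H6 and H7 it was 37.8, 54.6, 50.4, 31.9 and 47.0 CPM in January and 16.9, 14.3, 28.3, 16.8 and 3.40 CPM in August. The phases overlapped across horses, since H4 in August (28.3) was above A5 in January (17.4). The mean difference was 1.21 ± 0.683 (SD, n = 12), ranging from 0.141 in A5 to 2.79 in H7, and was 1.18 without A6.

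ENSECAG00000011723, rank 2, was a less abundant gene with a larger ratio. Its lowest, median and highest CPM were 4.46, 11.2 and 18.2 in Remission libraries and 0.804, 2.19 and 10.6 in Clinical libraries, a ratio of mean CPM of 3.32. A single horse accounted for the high end of the Clinical values: H6 stayed at 10.6 CPM after 11.3 in January, and the next highest Clinical value was 4.67 in A4. The mean difference was 1.02 ± 0.549, from 0.0680 in H6 to 1.82 in H2.

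The genes ranked 3 to 10 had mean differences of 0.963 to 0.819 and ratios of mean CPM of 1.81 to 3.77. The largest ratio of the 150 was that of rank 7, at 6.12 CPM in Remission and 1.63 CPM in Clinical libraries. Its lowest Remission value (3.94 CPM, H6) was above its highest Clinical value (2.74 CPM, A4), so its phases did not overlap across horses. Such a separation was seen for 10 genes, all among the 150, or 0.0735% of the 13597 genes. They held ranks 7, 20, 27, 28, 35, 54, 82, 95, 115 and 141, and since the choice of genes used this contrast, nothing is read from that number.

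**Figure D3:**
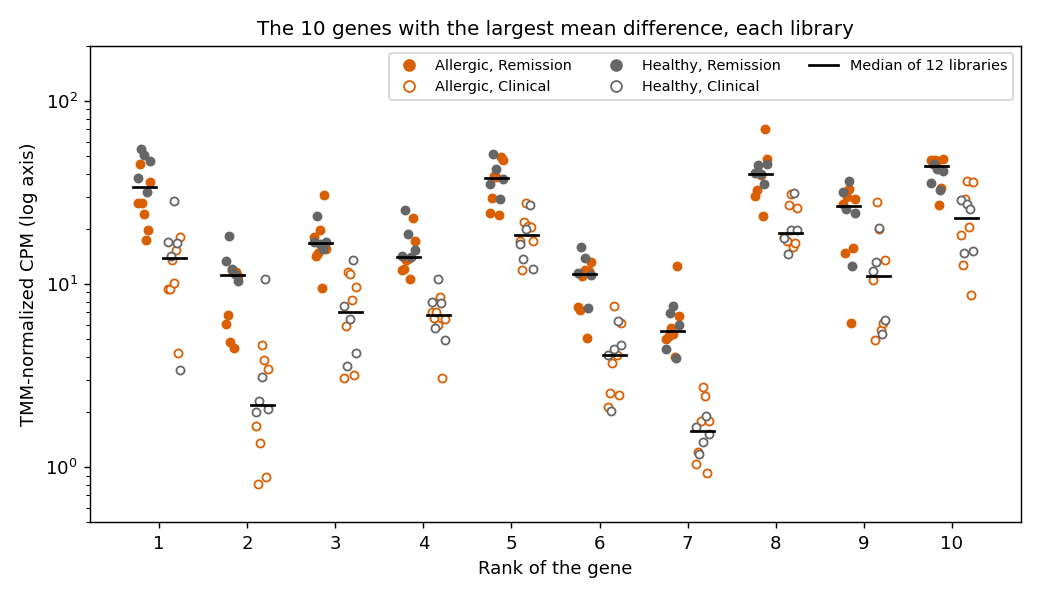
TMM-normalized CPM (log axis) of the genes ranked 1 to 10 in each library, filled circles for Remission and open circles for Clinical (orange, allergic; grey, healthy), with a bar at the median of 12 libraries. The medians of the open circles lie lower for every gene, but the phases are apart without overlap only for rank 7, where the lowest Remission value is 3.94 and the highest Clinical value 2.74 CPM.

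The most abundant of the 150 genes were those ranked 42, 33, 66, 120 and 81, and horse A6 weighed on several of them, with mean differences of 0.427 to 0.675 in all horses and of 0.363 to 0.604 without A6. Rank 42 had 560, 661 and 1425 CPM as its lowest, median and highest Remission values and 302, 441 and 646 CPM as its Clinical ones. The highest Remission value and the lowest Clinical value both came from A6, and without that horse the mean difference was 0.489 in place of 0.633. Rank 33 averaged 303 ± 51.2 CPM in Remission and 190 ± 41.8 CPM in Clinical libraries. Rank 66 averaged 239 ± 76.6 and 160 ± 41.3 CPM, and in A3 it hardly differed, with 247 CPM in January and 245 CPM in August. Not every abundant gene had its extreme in A6. Rank 120, at 156 ± 21.6 and 115 ± 14.3 CPM, had its largest difference in A1 (0.782). Rank 81 averaged 145 ± 37.2 and 101 ± 17.1 CPM, with a difference of 2.03 in A6 and of 0.0106 in A5.

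Some genes differed by a similar amount in each horse and others far more in a few horses. The 5 steadiest genes, ranks 94, 116, 141, 58 and 115, had an SD between horses of 0.165 to 0.180 around mean differences of 0.394 to 0.568. Ranks 58 and 115 were rare, at means of 5.06 and 3.94 CPM in Remission, where a pseudocount of 4 narrows differences. Rank 94, for example, averaged 35.6 ± 4.56 CPM in January and 24.6 ± 4.40 CPM in August, and its difference lay between 0.144 in H6 and 0.687 in H1. Rank 141 had no overlap between phases, with all 12 Remission libraries between 46.8 and 56.7 CPM and all 12 Clinical libraries between 29.8 and 44.6 CPM. The 5 most variable genes were ranks 3, 1, 37, 31 and 66, with an SD of 0.588 to 0.692. Of these, rank 37 reached 38.2 CPM in the Remission library of A6, against 7.79 to 19.6 CPM in the other 11. Its difference was 2.28 in A6, 1.40 in H2 and at most 0.815 in the other 10 horses. The median SD was 0.363 over the 150 genes and 0.280 over all 13597.

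The levels of the 150 genes within a phase were also set against each other across horses. With group means removed, the mean Pearson correlation over all pairs of the 150 genes was 0.256 across the 12 Remission libraries and 0.407 across the 12 Clinical libraries. Over pairs of all genes it was 0.00271 and 0.000551. Without A6 the 150 genes gave 0.255 and 0.375 across 11 libraries. These levels are the ones that chose the genes, which all had to move one way in every horse, and the points share their library and its depth, so the values are a description from which nothing is read.

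The border of the selection was not marked by a gap. Ranks 148, 149 and 150 had mean differences of 0.388, 0.388 and 0.387, and the next 3 genes outside had 0.387, 0.382 and 0.381. The demand for all 12 horses mattered more, as 224 genes with a mean difference at least that of rank 150 were left out for 1 horse alone. That horse was H6 for 83 of them, A5 for 45, A4 for 24, A3 for 20 and H2 for 0. Within the 150, the smallest difference in any horse was 8.65e-05 at the lowest and 0.339 at the highest, so for some genes a single horse was lower by next to nothing.

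Whether genes that were lower in August in one set of horses were also lower in other horses was tested by choosing them in one group and reading them in the other. By the same rule, 647 genes were lower in all 7 allergic horses, and the 150 with the largest mean difference were kept, of which 76 are among the 150 genes described above. In the 5 healthy horses, which this choice did not use, 149 of the 150 had a lower mean level in August, against 49.5% of all 12918 genes tested. They were lower in every healthy horse for 78 genes (52.0%), against 10.3% of all genes. By edgeR's quasi-likelihood test with Benjamini-Hochberg adjustment over all genes, 69 of the 150 were called lower at an adjusted p under 0.05, against 2.59% of all genes. The count of calls was thus many times the background. At an unadjusted p under 0.05, 122 (81.3%) were lower, against 11%. Their median log2 fold change, Clinical over Remission, was -0.67 in healthy horses, and 0.01 over all genes. This fit treated the 2 libraries of a horse as independent. With the horse as a replicate block, 58 of the 150 were called lower.

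The opposite reading gave the same direction with fewer calls. In the 5 healthy horses 1336 genes were lower in every horse, and of the 150 kept, 68 are among the 150 genes described above. Most of this list was lower in the horses it was not chosen in as well. In the 7 allergic horses, 146 of these 150 had a lower mean level in August, against 50.1% of all 13174 genes tested. They were lower in every allergic horse for 71 genes (47.3%), against 4.92% of all genes. The test called 33 lower at an adjusted p under 0.05, against 0.820% of all genes, and 106 (70.7%) had an unadjusted p under 0.05, against 10.0%. Their median log2 fold change was -0.67, against -0.01 over all genes. This fit too was unpaired, and with the horse as a replicate block 22 of the 150 were called lower.

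The number of calls rested on single horses, while direction and median size held with each horse left out in turn. Among healthy horses the 69 calls became 0 without H2 or H7, 2 without H1 and 11 without H4, and 101 without H6. The calls over all tested genes moved the same way, from 335 to 0 without H2 or H7, 4 without H1, 33 without H4 and 760 (5.98%) without H6. In the allergic horses the 33 calls became 4 without A1, 3 without A2, 11 without A3, 16 without A4, 25 without A5, 20 without A6 and 9 without A7. Over all tested genes the 108 calls became 6, 4, 31, 48, 68, 74 and 31 in that order, or 0.0309% to 0.570%. Whichever horse was left out, 147 to 150 of the genes had a negative log2 fold change in the healthy horses and 146 to 150 in the allergic horses. The median log2 fold change stayed between -0.85 and -0.52 in healthy and between -0.73 and -0.56 in allergic horses. At an unadjusted p under 0.05, 60.7% to 84.7% of the list were lower in healthy horses, against 7.78% to 13.9% of all genes. In allergic horses the share was 60% to 72%, against 7.34% to 9.85%. A list chosen without A6 gave 65 calls in healthy horses.

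**Figure D4:**
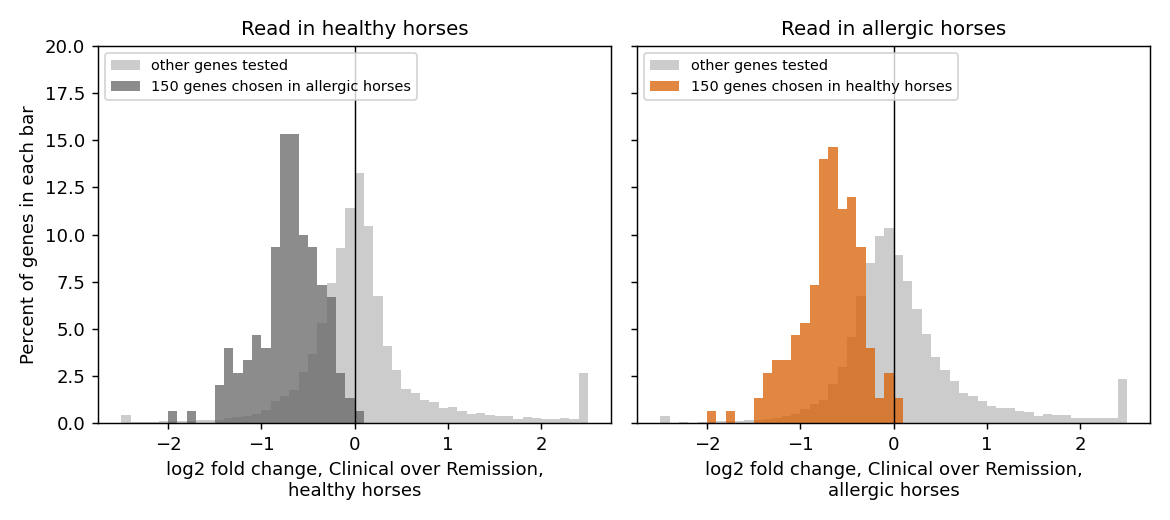
Log2 fold change, Clinical over Remission, of 150 genes chosen in one group of horses and read in the other (dark grey, read in 5 healthy horses; orange, read in 7 allergic horses), beside all other genes tested (light grey), as percent of genes per bar; the outermost bars also hold the genes past the ends of the axis. Both chosen lists lie left of 0, with a median of -0.67 in each panel, while the other genes centre on 0.

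Read horse by horse, 2 animals set the lower end. Of the genes chosen in allergic horses, 93 of 150 (62.0%) were lower in August in H6, where 50.1% of all genes were lower, and 136 to 149 in the other 4 healthy horses. Of those chosen in healthy horses, 111 of 150 (74.0%) were lower in A5, where 49.3% of all genes were lower. In the other 6 allergic horses 129 to 148 were lower, A6 being at 129.

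Allergic and healthy horses were then compared within each phase on the 150 genes, a contrast the choice of genes did not use. In the “Remission Phase” the edgeR quasi-likelihood test called 0 of the 150 genes, with 1 call among all 12670 genes tested (0.00789%). At an unadjusted p under 0.05 there were 8 of the 150, 1 higher and 7 lower in allergic horses. All tested genes had 10.0% under that threshold, with 6.37% higher and 3.67% lower. The 150 had 5.33%, with 0.667% higher and 4.67% lower. Their share was thus below that of all genes for higher and above it for lower. With so few genes, nothing is read from these shares. The log2 fold changes, allergic over healthy, ran from -0.70 to 0.46 with a median of -0.03, and 86 were negative and 64 positive.

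The smallest p in Remission belonged to rank 99. It was at 10.8 ± 0.957 CPM (SD, n = 7) in allergic and 15.5 ± 1.89 CPM (SD, n = 5) in healthy horses, and the highest allergic value (11.7, A7) was below the lowest healthy one (12.4, H2). Its log2 fold change was -0.52 (SE 0.126), which edgeR's quasi-likelihood test gave an adjusted p of 0.472 and DESeq2's Wald test an adjusted p of 0.0360. DESeq2 called no other member of the 150, and 0.269% of all genes. Rank 99 was also the only one of the 150 whose groups did not overlap in Remission, where 0.616% of all genes had every allergic horse below every healthy one and 0.892% the reverse. In August the gene was at 7.96 ± 2.32 CPM in allergic and 8.46 ± 2.08 CPM in healthy horses, a log2 fold change of -0.09 (SE 0.236).

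The next were rank 1 and rank 19. Rank 1 averaged 28.3 ± 9.67 CPM in allergic and 44.4 ± 9.32 CPM in healthy horses in January, with overlapping groups and a log2 fold change of -0.64 (SE 0.219; edgeR adjusted p = 0.482). Rank 19 averaged 23.3 ± 5.29 and 31.8 ± 4.02 CPM, with a log2 fold change of -0.44 (SE 0.159; edgeR adjusted p = 0.482). Neither difference passed the test.

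In the “Clinical Phase” the 150 genes gave 0 calls, as did all 13315 genes tested (0%) by edgeR. DESeq2 called 0 of the 150 and 0.0677% of all genes. A single member, rank 146, had an unadjusted p under 0.05, against 3.33% of all genes, or 1.94% in its direction. It was at 83.1 ± 11.4 CPM in allergic and 64.4 ± 10.7 CPM in healthy horses, a log2 fold change of 0.37 (SE 0.129), and its edgeR adjusted p was 1.00. In January the same gene had a log2 fold change of 0.36 (SE 0.169). Ranks 150 and 20 followed, with Clinical log2 fold changes of 0.24 (SE 0.127) and 0.53 (SE 0.289). None of the 150 separated the groups in August, where 0.0676% of all genes were higher and 0.0976% lower in every allergic horse.

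**Figure D5:**
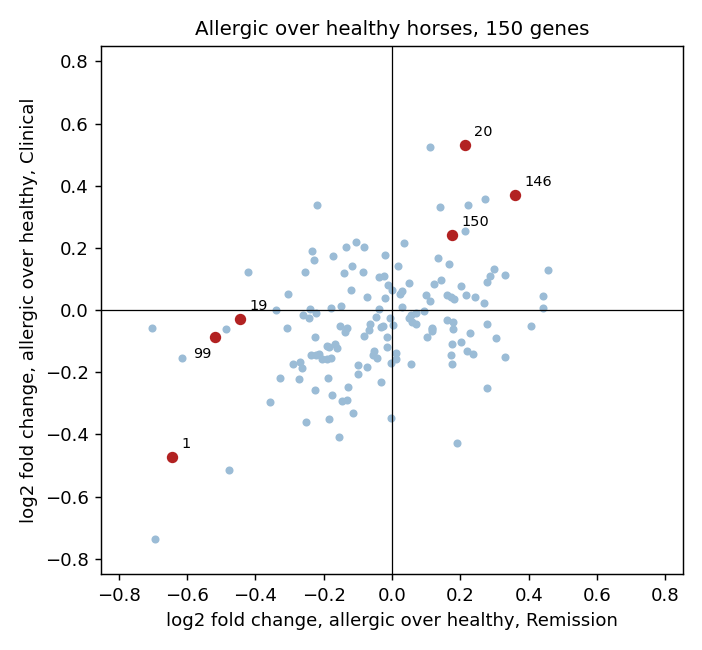
Log2 fold change of allergic over healthy horses for each of the 150 genes, in the “Remission Phase” (horizontal) and the “Clinical Phase” (vertical), from the edgeR fits; red points with their ranks are the 3 genes of smallest p in each phase. The points spread around 0, from -0.70 to 0.46 in Remission and from -0.74 to 0.53 in Clinical, and no point passed the adjusted threshold.

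The size of the seasonal difference is given by group as a description, since a gene was kept only if it was lower in August in all 7 allergic and all 5 healthy horses. Genes whose seasonal difference depended strongly on the group were thereby left out. The mean difference over the 150 genes was 0.549 ± 0.292 (SD, n = 7) in allergic and 0.564 ± 0.227 (SD, n = 5) in healthy horses. Without A6 the allergic mean was 0.453 ± 0.156. Single horses of the groups overlapped, from 0.240 to 1.13 in allergic and from 0.282 to 0.905 in healthy horses. Within a phase, the mean level differed between groups by -0.0442 in Remission (allergic minus healthy; two-sided exact permutation p = 0.609) and by -0.0290 in Clinical libraries (exact permutation p = 0.801), where 0.00126 is the smallest p the test allows. Without A6 the Remission difference was -0.0898 (exact permutation p = 0.229) and the Clinical difference turned positive, at 0.0217 (exact permutation p = 0.827). Gene by gene, edgeR's test of the interaction of group and phase called 0 of the 150 and 0 of all 13597 genes (0%), with the smallest adjusted p among the 150 at 0.962. At an unadjusted p under 0.05 there were 0 of the 150, and 3.71% of all genes. The interaction is computed from the same seasonal differences that chose the genes, so nothing is read from these counts. A p above the threshold does not show that the groups were alike, and 7 against 5 horses limit what these tests could detect.

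The rule itself moved with the scaling. Of the 150 genes, 140 were still lower in every horse with relative log expression factors, as DESeq2 uses, 124 with total counts alone and 150 with upper quartile factors. The median over all genes of the mean difference over horses moved by less than 0.02 in each case. That median does not show shifts in single horses. In A6 the TMM factor was 0.737 in the Remission and 0.915 in the Clinical library. With total counts alone, the group difference in the mean seasonal difference was -0.122 in place of -0.0152.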

How the data were processed

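The authors deposited 1 table of whole-number read counts per gene for each of 24 libraries (poly-A RNA, directional kit, single-end reads). The submitters' processing notes name Trim Galore 0.6.0, STAR 2.7.0e, edgeR and the EquCab3.0 build. The counting tool, strand setting and annotation were not given in the sources used here. Overlapping or near-identical genes may therefore share reads. Every entry names a gene. No depth or purity correction was applied.

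Here the counts were scaled by TMM (R 4.3.3, edgeR 4.0.16, limma 3.58.1). Genes needed 0.5 CPM in at least 1 library, and levels are log2(CPM + 4). The 12 horses were paired by the code each deposited count table carries, and groups were taken from the labels. Identifiers numbered 27663 to 27700, 8295 and 21429 were left out of the 150 genes. No identifier matched the reference table of symbols (0 of 30371). Tests were edgeR's quasi-likelihood test with Benjamini-Hochberg adjustment over all genes tested, and exact permutation tests over horses for the mean level within a phase. The group difference in the seasonal difference is a description. DESeq2 1.42.0, the tool of the study's own tests, was an alternative. The fits were tried on simulated counts with independent libraries, the same relative spread for all genes and no horse effect. That check does not cover correlation between the libraries of a horse, or a library such as the Remission library of A6. The phase fits had no horse term. The same horses gave both phases, and deviations from group means correlated within a horse by 0.226 on average, above 0.1 in 9 of 12 horses. Each library is 1 horse at 1 time, so p-values between groups within a phase measure the spread between horses. The phase fits without a horse term treated the 2 libraries of a horse as independent. Their p-values therefore do not measure how the change within a horse varied between horses. Totals of 14493071 to 40404429 counts set the precision of rare genes.

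Genes were named by rule: the 10 largest mean differences, the 5 highest Remission CPM, the 5 smallest and 5 largest SD, the 3 smallest p between groups in each phase, and 3 genes on each side of the border. The 150 genes, the lists and the tests were chosen with earlier results of these data known.

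Alternatives were other scaling factors, pseudocount 1, other filters, thinning to the lowest total, horses left out in turn and a horse block. Choosing without horse A6 was added after its library was seen.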

Additional observations from a re-analysis of the deposited data

Results flagged for a closer look

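A sample was marked where its gap to the nearest other sample of its group was a large share of the group's range, by Dixon's criterion. Of 76 groups of 5 or 7 values examined (27 named genes and the library measures), 13 were marked. Chance marks about 1 in 20 groups of values that were not chosen. The named genes were chosen partly by the size and the spread of these same differences, so the 13 cannot be set against that rate. Horse A6 accounts for 11 of the 13 and H2 for the other 2. The groups are not independent, since they come from the same 24 libraries.

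The 150 genes summed to 7118 CPM after TMM scaling in the Remission library of A6, and the next allergic Remission library reached 5316 CPM. Unscaled, their share in A6 was 0.524% of counts, within the allergic Remission range of 0.393% to 0.563%. Genes with counts numbered 11802 in the Remission library of A6, and the next lowest allergic Remission library had 13130. In the Remission library of H2 there were 12934, against 13539 in the next lowest healthy one. In A6 the Remission minus Clinical difference stood apart from the other 6 allergic horses for ranks 7 (1.75), 8 (1.84), 20 (2.14), 33 (1.46), 37 (2.28), 42 (2.22), 66 (2.14), 81 (2.03) and 150 (1.26). In H2 it stood apart from the other 4 healthy horses for rank 37 (1.40). The part of the low gene number of these libraries in the differences was not tested.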

How the results depend on the processing

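The 221 genes lower in every horse numbered 202 to 270 over the scaling, filter, pseudocount and thinning alternatives, and 226 to 377 with a horse left out, the highest without H6. The 150 kept 124 to 150 of their genes over the former and 90 to 144 over the latter, the lowest without H6. The group difference in the mean seasonal difference (-0.0152) ran from -0.117 to 0.0703 with a horse left out, turning positive without A3 (0.0184), A4 (0.00525), A5 (0.0392) or H2 (0.0703), a description with no test. With total counts alone it was -0.122, and with genes chosen and read without A6 it was -0.128. DESeq2 called 1 of the 150 genes between groups in Remission, where edgeR called 0. Calls in allergic horses of the genes chosen in healthy ones were 59 by DESeq2, 9 with total counts alone and 3 to 25 with a horse left out, where calls over all genes ran from 0.0309% to 0.570%. Calls in healthy horses of the genes chosen in allergic ones were 0 to 101 with a horse left out, where calls over all genes ran from 0% to 5.98%, and 87 by DESeq2. With the horse as a replicate block, the paired fits gave 58 calls in healthy horses (69 without it), 22 in allergic horses (33 without it), and 0 for the interaction, and the voom fits with the block gave 0 between groups in both phases. At pseudocount 1, the mean difference was 1.41 for rank 7 (0.824 at pseudocount 4), 1.57 for rank 2 (1.02) and 1.42 for rank 1 (1.21), so ranks 1 and 2 changed places. The cause of these changes was not tested. The remaining settings moved no count by over 1.5 times. Depth limits the rarest genes most, and intervals for counting error were not added to the spread between horses.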
